A study of Mus musculus with 8 samples.

Results

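The nuclear genes of the mitochondrial respiratory chain and ATP synthase were examined for H3K27ac at their promoters in mouse P5424 cells. Members are the nuclear protein-coding genes of GRCm38 whose symbol starts with Nduf, Sdh, Uqcr or Atp5, or with Cox followed by a digit from 4 to 8. They numbered 100 of 21887 nuclear protein-coding genes, and a start could be placed for all 100 and for 21535 genes in total. H3K27ac ChIP-seq was made in wt P5424 cells, a line that resembles T cell precursors, and in ΔIkE120 P5424 cells, from which CRISPR/Cas9 had removed the IkE120 enhancer of *Ikzf1* on both alleles. ΔIkE120 is a single clone, and each genotype has 1 library, so no value carries an error or a test, and genotype, clone and library cannot be told apart. It is not stated whether the cells had been stimulated with PMA and ionomycin before ChIP. The wt list held 34553 peaks with a median length of 603 bp, and the ΔIkE120 list 29902 peaks with a median of 628 bp. Read depth is unknown, so peak heights were ranked within each list and not compared between lists.

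The labelled cell type was compared with marker genes. A wt peak lay within 1 kb of the start of 14 of 14 T lineage genes, and a ΔIkE120 peak at 13 of 14, the exception being *Cd2*, with a wt peak of 859 bp. *Cd3d*, *Cd3e*, *Cd3g*, *Lck*, *Zap70*, *Tcf7* and *Bcl11b* were among those marked in both. Of 5 B lineage genes, *Ebf1* alone had a peak in each list. Of 5 myeloid genes, *Spi1* had a peak in both lists and *Mpo* in wt. None of 7 heart and skeletal muscle genes, 5 testis germ cell genes and 3 ES cell genes had a peak in either list. Promoter acetylation in both lists was thus that of T lineage cells as labelled.

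The respiratory chain passes electrons from NADH and succinate to oxygen through complexes I to IV of the inner mitochondrial membrane. Complexes I, III and IV pump protons, and ATP synthase uses the gradient to make ATP. Most subunits are encoded in the nucleus, and in proliferating lymphocytes the chain also serves the synthesis of nucleotides and aspartate. Several subunits of complex IV exist as a form made in nearly every cell and a form made in muscle, lung or testis, so that isoform genes can tell tissue-restricted promoters from general ones. H3K27ac is found on nucleosomes beside active promoters and enhancers.

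Most respiratory chain promoters were acetylated in both genotypes. A wt peak lay within 1 kb of the start of 90 of 100 members, against 45.7% of all protein-coding genes. A ΔIkE120 peak was found at 90 members, against 45.2% of all genes. The same 90 members had a peak in both lists, where the share over all genes was 44.7%. No member had a peak in wt only (0.998% of all genes) or in ΔIkE120 only (0.497%). Both shares were so low over the genome that counts of 0 among 100 genes do not set the members apart. The 10 members without a peak were 7 tissue-specific isoform genes (*Cox4i2*, *Cox6b2*, *Cox7a1*, *Cox7b2*, *Cox8b*, *Cox8c* and *Ndufa4l2*) and 3 others, among them *Ndufb4b* and *Ndufb4c*. A peak list holds only regions above the caller's threshold, and a promoter without a peak may still carry the mark at a lower level.

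Peak length at a promoter was taken as the summed length of all peaks of a list touching the window of 1 kb to either side of the start. Over the 90 members with peaks in both lists the median length was 1201 bp in wt (quartiles 961 and 1428 bp) and 1186 bp in ΔIkE120 (910 and 1375 bp). Over 9630 genes with peaks in both lists the medians were 1210 and 1183 bp. Length ratios of ΔIkE120 over wt had a median of 0.986 (quartiles 0.876 and 1.08), beside 0.984 over the 9630 genes. The peak was shorter in ΔIkE120 at 50 of the 90 members and longer at 40, and 55.1% of all genes with both peaks had the shorter one in ΔIkE120. A ratio at or below 1/1.5 was found for 2 members, where 4.44% of all genes with both peaks had such a ratio. A ratio at or above 1.5 was found for 1 member, beside 2.96% of all genes with both peaks. The members thus lay near all marked promoters in length and ratio, while the share of them that had a peak at all was above that of all genes.

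**Figure D1:**
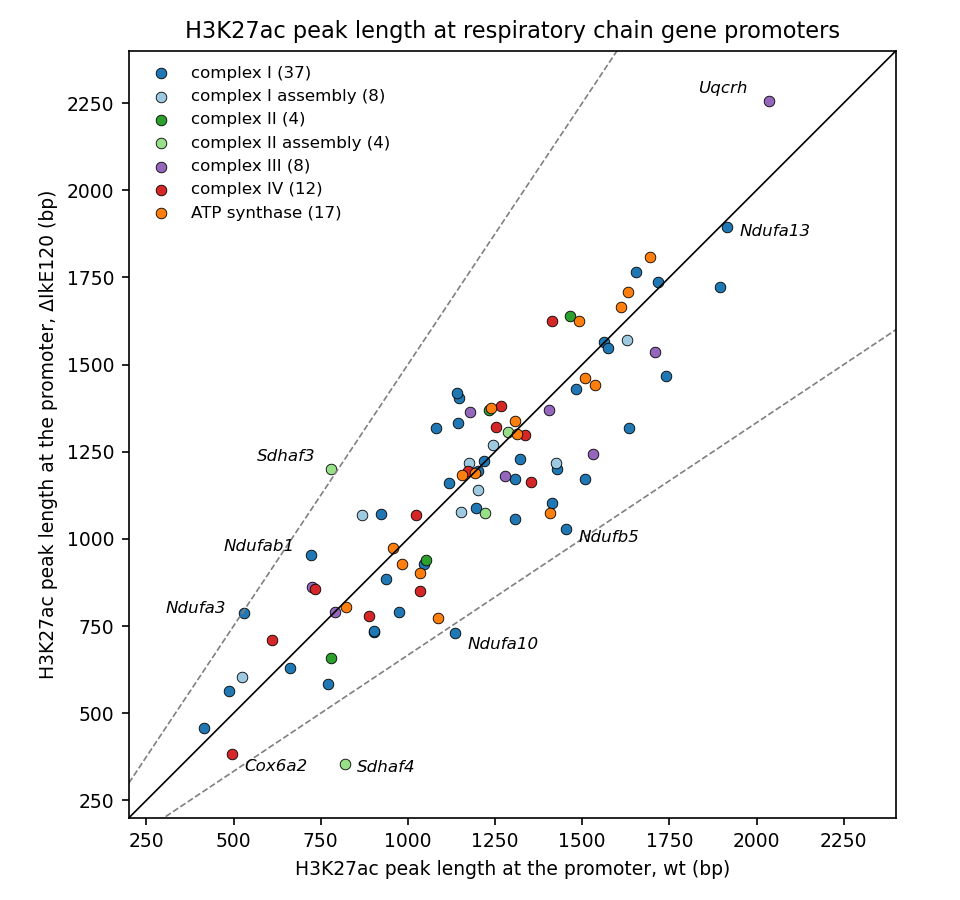
Summed H3K27ac peak length in bp within reach of the start in wt (x axis) and ΔIkE120 cells (y axis) for the 90 members with a peak in both lists, each point being a gene coloured by complex with the number of points in brackets. The solid line marks equal length and the dashed lines a ratio of 1.5 in either direction, beyond which lie *Sdhaf4* and *Ndufa10* below and *Sdhaf3* above.

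The 3 smallest and the 3 largest ratios belonged to subunits of complex I and assembly factors of complex II. At *Sdhaf4*, an assembly factor that helps join the flavoprotein to complex II, the wt peak spanned chr1:24004998-24005816 (819 bp) and the ΔIkE120 peak chr1:24005176-24005529 (354 bp). Its ratio of 0.432 was the smallest of all members, and the ΔIkE120 peak lay wholly inside the wt peak and did not hold the start at 24005640. *Ndufa10*, an accessory subunit of complex I, had 1134 bp in wt and 731 bp in ΔIkE120, a ratio of 0.645. Its peak reached 481 bp upstream in wt and 107 bp in ΔIkE120, whereas downstream it reached 652 and 623 bp. *Ndufb5*, another accessory subunit, followed with 1453 bp in wt, 1028 bp in ΔIkE120 and a ratio of 0.708. Here the wt list had 1 peak and the ΔIkE120 list 2 peaks with a gap of 197 bp, and the marked stretch reached 784 bp upstream in wt and 705 bp in ΔIkE120. In the other direction, *Sdhaf3*, a factor for the iron-sulfur subunit of complex II, had 781 bp in wt and 1200 bp in ΔIkE120, a ratio of 1.54. The added length lay upstream, where the wt peak reached 59 bp and the ΔIkE120 peak 480 bp. *Ndufa3*, an accessory subunit of complex I, had 531 bp in wt and 787 bp in ΔIkE120, a ratio of 1.48. *Ndufab1*, which encodes the mitochondrial acyl carrier protein, had 721 bp in wt and 953 bp in ΔIkE120, a ratio of 1.32. Both ends of the range thus held an assembly factor of complex II and accessory subunits of complex I.

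Complex I oxidizes NADH and was the largest group. Of its 41 members named as subunits, 37 had a peak in both lists, with median lengths of 1195 bp in wt and 1171 bp in ΔIkE120. The median ratio was 0.955, beside 0.984 over all genes with both peaks. The length was shorter in ΔIkE120 at 23 of 37 subunit genes (62.2%), beside 55.1% of all genes with both peaks. The core subunits of the NADH-oxidizing arm were marked in both genotypes. At *Ndufs1*, whose protein carries iron-sulfur clusters, the length was 1895 bp in wt, among the 3 longest of the members, and 1721 bp in ΔIkE120. *Ndufv1*, whose protein binds the flavin that accepts electrons from NADH, had 772 bp in wt, in 2 peaks, and 584 bp in ΔIkE120, in 1 peak. *Ndufv2*, its iron-sulfur partner, had 1508 bp in wt and 1171 bp in ΔIkE120. All of these had ratios below 1, at 0.908, 0.756 and 0.777.

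The core subunits of the arm that hands electrons to ubiquinone varied more. *Ndufs3* had 1080 bp in wt and 1318 bp in ΔIkE120, a ratio of 1.22. *Ndufs7*, which holds the last iron-sulfur cluster before ubiquinone, had 975 bp in wt and 790 bp in ΔIkE120, a ratio of 0.810. *Ndufs8* had 1573 bp in wt and 1548 bp in ΔIkE120, a ratio of 0.984. One of these lengthened and the others had ratios below 1, and none passed 1.5 in either direction.

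Of the accessory subunits of complex I, *Ndufa13* had the longest peaks, with 1916 bp in wt and 1894 bp in ΔIkE120. The shortest in wt was *Ndufa8*, with 414 bp in wt and 458 bp in ΔIkE120. *Ndufb4*, in the membrane arm, had 1147 bp in wt and 1405 bp in ΔIkE120. Its named copies *Ndufb4b* on chromosome 19 and *Ndufb4c* on chromosome 15 had no peak, the nearest wt peaks being 18893 and 24323 bp from their starts. Reads may not be placed uniquely among such copies, so a missing peak there is uncertain. The 8 assembly factors of complex I, *Ndufaf1* to *Ndufaf8*, all had a peak in both lists, with ratios from 0.855 at *Ndufaf8* to 1.23 at *Ndufaf1*. Subunits and assembly factors of complex I were thus alike in presence, at 37 of 41 and 8 of 8, and in wt median length, at 1195 and 1187 bp.

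Complex II, succinate dehydrogenase, also belongs to the citric acid cycle, and its 4 subunit genes were marked in both lists. *Sdha*, the flavoprotein that oxidizes succinate, had 1232 bp in wt and 1369 bp in ΔIkE120, a ratio of 1.11. *Sdhb*, the iron-sulfur subunit, had 1052 bp in wt and 939 bp in ΔIkE120, a ratio of 0.893. Its start lay outside the peaks of both lists, 83 bp from the nearest wt peak. *Sdhc*, a membrane anchor, had 779 bp in wt and 657 bp in ΔIkE120, a ratio of 0.843. *Sdhd*, the other anchor, had 1464 bp in wt and 1639 bp in ΔIkE120, a ratio of 1.12. The subunits were thus split evenly between shorter and longer peaks. All 4 assembly factors had a peak in both lists, and among them were the smallest and the largest ratio of the members, given above. *Sdhaf1* had 1220 bp in wt and 1073 bp in ΔIkE120, and *Sdhaf2* 1288 and 1306 bp.

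Complex III passes electrons from ubiquinol to cytochrome c, and all 8 Uqcr genes were marked in both lists. Median lengths were 1342 bp in wt and 1304 bp in ΔIkE120. *Uqcrh*, the hinge protein beside cytochrome c1, had the longest peak of all members in each list, at 2036 bp in wt and 2255 bp in ΔIkE120. Most of it lay upstream of the start, where it reached 1587 bp in wt and 1890 bp in ΔIkE120, and the start of *Lrrc41* lay 199 bp away on the other strand. *Uqcrc1*, a core protein, had 792 bp in wt and 790 bp in ΔIkE120, a ratio of 0.997. *Uqcrc2*, the other core protein, had 1406 bp in wt and 1371 bp in ΔIkE120, a ratio of 0.975. *Uqcrfs1*, the Rieske iron-sulfur protein, had 1278 bp in wt and 1179 bp in ΔIkE120, a ratio of 0.923. These 3 genes all had ratios slightly below 1. Over the complex, ratios ran from 0.813 at *Uqcrq* to 1.19 at *Uqcrb*.

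Complex IV, cytochrome c oxidase, reduces oxygen and is the complex with most isoform genes. Only 12 of its 18 members had a peak, and the 6 without one were all tissue-specific isoforms. The subunit genes outside the isoform lists were marked in both lists. *Cox5a* had 1172 bp in wt and 1196 bp in ΔIkE120, a ratio of 1.02. *Cox5b* had 1354 bp in wt and 1163 bp in ΔIkE120, a ratio of 0.859. *Cox7c* had 889 bp in wt and 778 bp in ΔIkE120, a ratio of 0.875. Median lengths over the 12 genes were 1104 bp in wt and 1116 bp in ΔIkE120, the lowest wt median among the complexes apart from the assembly factors of complex II.

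Isoform genes divided by their known tissue range. Of 9 genes listed as forms expressed in most tissues, 9 had a peak in both lists, among them *Cox6c*, which has no partner gene here. Of 8 genes known from particular tissues or from hypoxia, 1 had a peak, *Cox6a2*. The start used for *Ndufa4l2*, the hypoxia-induced gene, was the end of its gene record and may not be the start in use, so its place among the unmarked genes is uncertain. *Cox4i1*, the general form of the regulatory subunit 4, had 1414 bp in wt and 1624 bp in ΔIkE120, whereas its lung form *Cox4i2* had no peak nearer than 12264 bp in wt. In ΔIkE120 a peak of 328 bp lay inside *Cox4i2*, at chr2:152763943-152764270, 10027 bp from its start. *Cox8a* had 1023 bp in wt and 1069 bp in ΔIkE120, in 2 peaks in each list. Its muscle form *Cox8b* and testis form *Cox8c* had no peak within 17553 and 20358 bp in wt. The general promoters were thus marked beside unmarked partner genes of the same subunit.

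The same division held for the other subunits with partner genes, except for subunit 6a. *Cox6b1* had 611 bp in wt and 711 bp in ΔIkE120, and the testis form *Cox6b2* no peak. *Cox7a2* had 1268 bp in wt and 1380 bp in ΔIkE120, and its relative *Cox7a2l*, which takes part in joining complexes into supercomplexes, 1337 and 1299 bp. The muscle form *Cox7a1* had no peak, the nearest in wt being 10588 bp away. *Cox7b* had 735 bp in wt and 855 bp in ΔIkE120, while the nearest wt peak to its testis form *Cox7b2* was 354983 bp away. *Cox6c* had 1035 bp in wt and 850 bp in ΔIkE120. *Ndufa4*, named for complex I and now counted as a subunit of complex IV, had 1202 bp in wt and 1195 bp in ΔIkE120. Its hypoxia-induced relative *Ndufa4l2* had no peak at the start of its gene record, but inside the gene lay 2 peaks in each list, the nearer one 2499 bp from the start in wt (1028 bp) and 2539 bp in ΔIkE120 (1048 bp). Over the 9 genes expressed in most tissues the median ratio was 1.05, with the length shorter in ΔIkE120 at 3 and longer at 6. Over all genes with both peaks the median ratio was 0.984 and 55.1% were shorter, and 9 genes are too few to set apart from this.

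At subunit 6a the promoters of both isoforms were marked, though to different lengths. *Cox6a1*, the general form, had 1254 bp in wt and 1322 bp in ΔIkE120. *Cox6a2*, the heart and skeletal muscle form, had 496 bp at chr7:128205963-128206458 in wt and 382 bp at chr7:128206077-128206458 in ΔIkE120, a ratio of 0.770. Both peaks held its start at 128206366 and ended upstream at the same base. Ranked by the deposited -log10 q-value, the *Cox6a2* peak stood at percentile 63.7 of the wt list and at percentile 13.0 of the ΔIkE120 list. These ranks come from lists of different size and unknown depth, so they place the peak within its own list and give no difference between genotypes. None of the 7 muscle marker genes had a peak in either list.

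**Figure D2:**
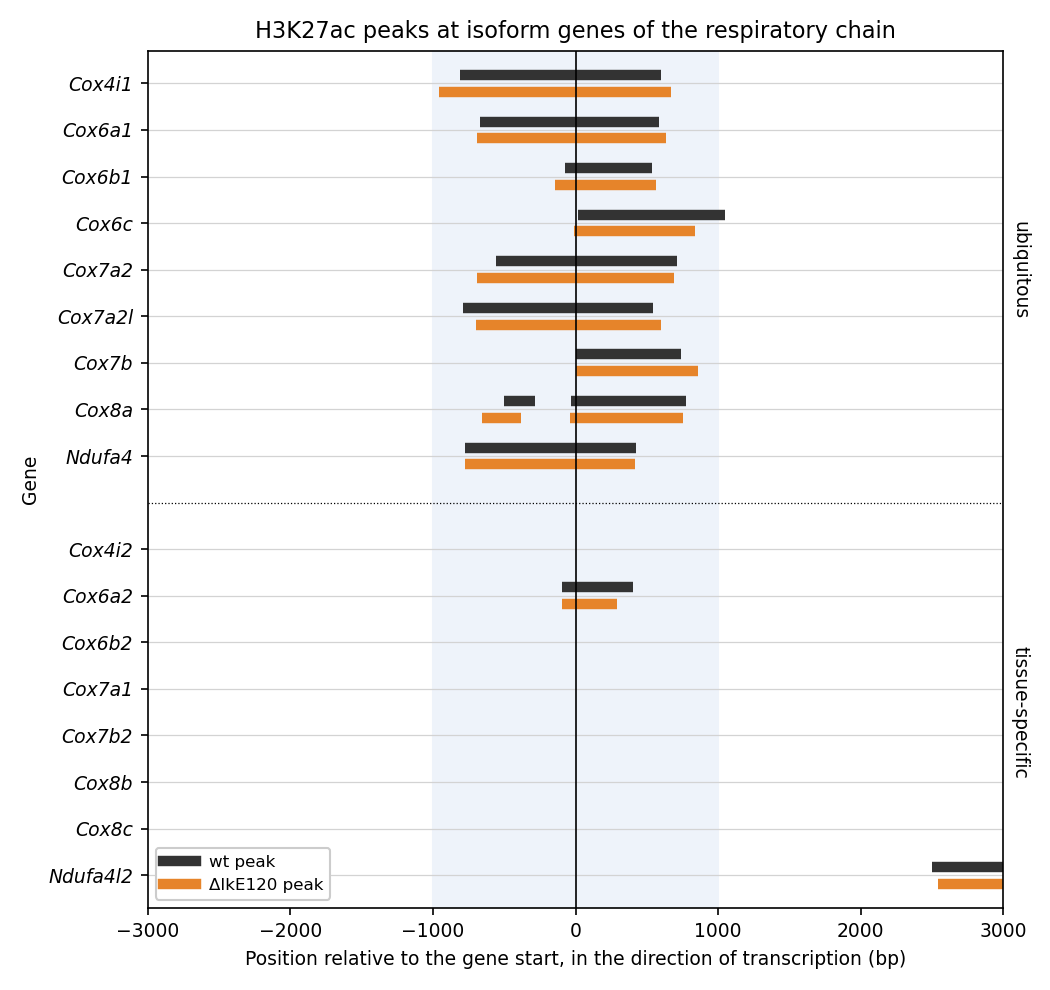
H3K27ac peaks in wt (dark) and ΔIkE120 (orange) around the starts of 9 genes listed as forms expressed in most tissues (top) and 8 tissue-specific or hypoxia-induced isoform genes (bottom), in bp in the direction of transcription, with the window of 1 kb to either side of the start shaded. All genes of the upper group have a peak in the band in both lists, and in the lower group *Cox6a2* alone has one.

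ATP synthase genes were marked without exception. All 17 Atp5 members had a peak in both lists, with median lengths of 1306 bp in wt and 1300 bp in ΔIkE120 and a median ratio of 0.997. *Atp5a1*, the alpha subunit of the catalytic head, had 1155 bp in wt and 1183 bp in ΔIkE120, a ratio of 1.02. *Atp5b*, the catalytic beta subunit, had 1306 bp in wt and 1337 bp in ΔIkE120, also a ratio of 1.02. *Atp5c1*, the gamma subunit of the rotating stalk, had 1491 bp in wt and 1624 bp in ΔIkE120, a ratio of 1.09. These 3 genes had ratios slightly above 1, while *Atp5d* and *Atp5e*, for the small delta and epsilon subunits, had 0.979 and 0.945. *Atp5g1*, *Atp5g2* and *Atp5g3* encode the same c subunit of the membrane ring with different import sequences, and all were marked, unlike most tissue-specific isoforms of complex IV. *Atp5g1* had 1312 bp in wt and 1300 bp in ΔIkE120. *Atp5g2* had 1192 bp in wt and 1188 bp in ΔIkE120. *Atp5g3* had 1694 bp in wt and 1809 bp in ΔIkE120, the latter among the 3 longest of the members in that list. The lowest ratios were those of *Atp5mpl*, at 0.711, and *Atp5j2*, at 0.763, both small membrane subunits.

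**Figure D3:**
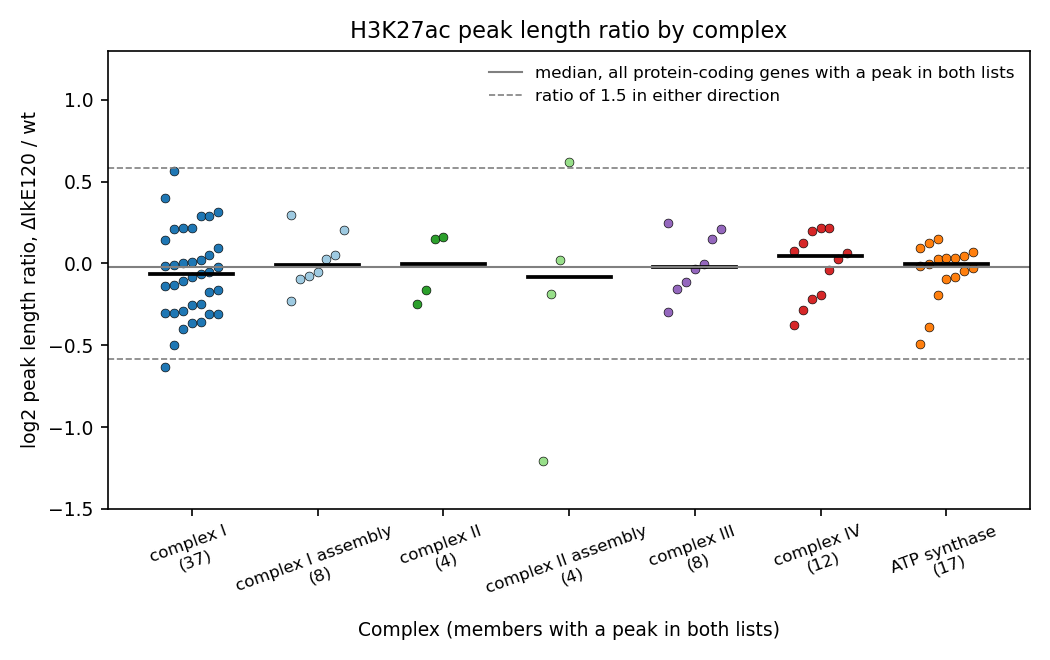
Log2 ratio of the peak length in ΔIkE120 over wt for the 90 members with a peak in both lists, by complex, with genes as points, black bars as the medians of each group, the grey line as the median of all 9630 protein-coding genes with both peaks, and dashed lines at a ratio of 1.5 in either direction. Group medians lie between -0.08 and 0.05, near the general median of -0.02.

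By the strength of their peaks the members ranked close to all marked genes. The strongest peak of each promoter was ranked by its deposited -log10 q-value among all peaks of the list. The median member stood at percentile 86.7 in wt and 86.0 in ΔIkE120, and the median of all genes with both peaks at 85.0 and 83.1. ATP synthase genes stood highest, at 96.1 in wt and 95.2 in ΔIkE120, led by *Atp5g2* at 99.9 in both. Complex IV genes with a peak stood at 89.7 and 85.6, and complex I subunits at 84.9 and 83.6. Below most members, though above *Cox6a2* in ΔIkE120, were *Ndufb10* (53.7 in wt, 42.3 in ΔIkE120) and *Ndufaf2* (54.2 and 49.9). Peak length was related negatively to fold enrichment, and its relation to -log10 q was weak. Length was summed over the peaks of a promoter, while fold enrichment and -log10 q were each the highest among them. Across the 90 members, which are not independent replicates, length had a Spearman rho of -0.509 in wt and -0.514 in ΔIkE120 with the deposited fold enrichment. Over the 9630 genes with both peaks this was -0.275 and -0.269. With -log10 q, rho was small for members, at 0.144 and 0.077, and weakly positive for the 9630 genes, at 0.286 and 0.311. *Ndufc1*, for example, had a short wt peak of 661 bp with a fold enrichment of 7.50, and *Uqcrh* its 2036 bp with 3.51.

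At the median member the marked stretch reached to both sides of the start in each list, though at some genes it lay wholly downstream. The start was inside a peak at 77 of 90 members in wt (85.6%, against 74.8% of the 9630 genes with both peaks) and at 80 in ΔIkE120 (88.9%, against 74.1%). Where it lay outside, the nearest peak was at most 83 bp away in wt, at *Sdhb*, and 122 bp in ΔIkE120, at *Ndufb10*. The marked stretch reached a median of 566 bp upstream and 680 bp downstream in wt, and 558 and 682 bp in ΔIkE120. Separate peaks within reach of a single start, 2 at each, were present at 17 members in wt and 16 in ΔIkE120, with 13 genes common to both. Over all 9630 genes with both peaks, 2075 had more than 1 peak in wt and 1997 in ΔIkE120, a somewhat larger share than among members. At the members with 2 peaks the gap had a median of 240 bp in wt and 226 bp in ΔIkE120. It held the start at 8 of 17 members in wt and at 3 of 16 in ΔIkE120, and gaps were not counted over all genes. At *Ndufa6* and *Ndufaf6* the start lay only 13 and 14 bp from the nearest wt peak. These counts thus rest on small distances in 1 library each and give no difference between genotypes. Bases shared by the peaks of both lists made up a median of 0.855 of all bases covered in either, the same as over all genes with both peaks. The lowest shares were 0.432 at *Sdhaf4* and 0.476 at *Ndufv1*, where an upstream wt peak was missing from ΔIkE120. At most members the marked stretches thus overlapped widely between the lists.

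Many respiratory chain promoters were shared with a gene on the opposite strand. Another protein-coding start on the other strand lay within 1 kb of 34 of 100 members, against 9.8% of all genes, and all 34 had a peak in both lists that also lay within 1 kb of the partner's start. Such promoters were mostly marked over the genome too, with a peak in both lists at 89.1% of 2102 genes that have an opposite start this near. The distance between starts ranged from 9 to 501 bp with a median of 108 bp. The closest pairs were *Ndufs1* and *Eef1b2*, a translation elongation factor, at 9 bp, *Ndufa7* and the ribosomal protein gene *Rps28*, at 10 bp, and *Ndufa1* and *Rnf113a1*, at 16 bp. *Sdhd* paired with *Timm8b*, of the mitochondrial import machinery, at 52 bp, and *Ndufb5* with the mitochondrial ribosomal gene *Mrpl47*, at 308 bp. *Atp5j* lay 501 bp from *Gabpa*, the DNA-binding subunit of a factor known to act on respiratory genes, and both lay near the same 2 peaks, which added up to 1507 bp in wt and 1462 bp in ΔIkE120. These pairs, other than the closest, were named after their values were seen. Peaks at the 34 paired members had a median of 1419 bp in wt and 1319 bp in ΔIkE120, and the other members 1126 and 1072 bp. Over all genes with both peaks the medians with a partner were 1355 bp in wt and 1353 bp in ΔIkE120, and without one 1169 and 1133 bp. Gene by gene, 17 paired members had the shorter peak in ΔIkE120 and 17 the longer, with a median ratio of 0.998, beside 0.996 over all paired genes. Acetylation at a shared promoter cannot be assigned to either gene, so for these 34 members the length belongs to the pair.

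Members were spread over 19 chromosomes, with at most 10 on any of them. On chromosome 11, which carries *Ikzf1* and the deleted enhancer, there were 5, and the nearest to *Ikzf1*, *Uqcr10*, lay 6.98 Mb away. The X-linked members were *Ndufa1*, *Ndufb11* and *Cox7b*, all with a peak in both lists. Their median percentile by -log10 q was 65.6 in each list, below the 87.3 in wt and 86.3 in ΔIkE120 of the other members. The same order was present over the genome, with 70.8 and 68.0 for marked genes on X and 85.4 and 83.5 on the autosomes.

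Promoter sequences of 300 bases, from 250 before the start to 50 after it, were taken from RefSeq (GRCm38.p6) for 82 of the 100 members. Among those without an entry were *Ndufs1*, *Sdhc*, *Cox4i2*, *Ndufaf6*, *Uqcrc2*, *Cox6a2*, *Cox4i1*, *Ndufa4l2*, *Uqcrq*, *Cox8c*, *Atp5mpl*, *Uqcrb*, *Cox6c*, *Ndufb9*, *Ndufb4c*, *Ndufa2* and *Atp5a1*. Median GC content was 58.5%, beside 56.3% over 17492 promoters and 61.7% over those with a peak in both lists. The median ratio of observed to expected CpG was 0.831 for members, 0.577 for all promoters and 0.808 for the 7940 promoters with a peak in both lists. The 5 unmarked members with a sequence (*Cox6b2*, *Cox7a1*, *Cox7b2*, *Cox8b* and *Ndufb4b*) had CpG ratios from 0.115 to 0.564, and the 77 marked ones from 0.368 to 1.23. The ranges overlap, with *Cox7b* as the marked promoter of lowest value. The CpG ratio was 0.842 in *Cox8a* and 0.115 in its unmarked partner *Cox8b*, 0.833 in *Cox7a2* and 0.333 in *Cox7a1*, and 0.807 in *Cox6b1* and 0.432 in *Cox6b2*. The remaining pair with both sequences went the opposite way, with 0.368 in *Cox7b* and 0.564 in *Cox7b2*. The promoters of the former pairs are given here to show the difference within a subunit, with CpG dinucleotides in capitals, and were chosen after the values were seen. The CpG dinucleotides number 19 in *Cox8a* and 2 in *Cox8b*, 20 in *Cox7a2* and 7 in *Cox7a1*, and 17 in *Cox6b1* and 10 in *Cox6b2*.
Cox8a, chr19:7217567-7217866, minus strand: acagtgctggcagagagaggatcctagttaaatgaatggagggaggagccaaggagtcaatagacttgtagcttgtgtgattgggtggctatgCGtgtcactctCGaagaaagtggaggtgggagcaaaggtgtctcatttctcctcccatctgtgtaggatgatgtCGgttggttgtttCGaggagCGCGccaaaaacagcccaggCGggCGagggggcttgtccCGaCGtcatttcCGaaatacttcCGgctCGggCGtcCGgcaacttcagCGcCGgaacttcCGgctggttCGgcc
Cox8b, chr7:140900397-140900696, minus strand: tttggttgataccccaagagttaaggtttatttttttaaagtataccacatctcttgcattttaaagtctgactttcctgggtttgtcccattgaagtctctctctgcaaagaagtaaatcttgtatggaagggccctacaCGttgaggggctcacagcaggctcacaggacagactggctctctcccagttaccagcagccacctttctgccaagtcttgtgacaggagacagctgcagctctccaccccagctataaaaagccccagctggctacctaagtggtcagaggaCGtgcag
Cox7a2, chr9:79759804-79760103, minus strand: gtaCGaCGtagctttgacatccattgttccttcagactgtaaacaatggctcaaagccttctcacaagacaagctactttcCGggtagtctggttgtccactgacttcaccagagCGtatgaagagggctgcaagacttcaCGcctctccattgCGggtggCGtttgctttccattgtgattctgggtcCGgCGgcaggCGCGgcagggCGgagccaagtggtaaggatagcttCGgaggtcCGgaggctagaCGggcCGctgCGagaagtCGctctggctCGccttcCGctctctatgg
Cox7a1, chr7:30183921-30184220, plus strand: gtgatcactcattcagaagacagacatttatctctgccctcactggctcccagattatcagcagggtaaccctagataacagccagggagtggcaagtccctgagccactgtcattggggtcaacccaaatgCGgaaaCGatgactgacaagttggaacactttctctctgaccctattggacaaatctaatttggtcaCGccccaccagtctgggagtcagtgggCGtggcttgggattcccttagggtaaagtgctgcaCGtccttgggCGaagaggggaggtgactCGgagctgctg
Cox6b1, chr7:30626065-30626364, minus strand: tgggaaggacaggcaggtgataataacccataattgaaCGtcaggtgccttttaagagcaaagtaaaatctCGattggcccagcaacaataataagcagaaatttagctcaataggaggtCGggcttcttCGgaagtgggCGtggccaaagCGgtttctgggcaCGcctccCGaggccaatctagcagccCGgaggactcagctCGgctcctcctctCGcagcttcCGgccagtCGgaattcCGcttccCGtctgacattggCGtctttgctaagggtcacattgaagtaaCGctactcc
Cox6b2, chr7:4753045-4753344, minus strand: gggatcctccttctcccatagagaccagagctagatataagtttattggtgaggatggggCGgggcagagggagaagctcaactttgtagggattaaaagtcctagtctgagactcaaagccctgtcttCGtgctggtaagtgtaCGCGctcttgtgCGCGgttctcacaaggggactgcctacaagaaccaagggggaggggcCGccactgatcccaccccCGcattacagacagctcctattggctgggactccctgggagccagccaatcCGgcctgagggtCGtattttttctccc

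These promoters were searched on both strands for 8 short motifs, none of which is part of another. The core of the NRF1 site, CGCATGCG, was found in 10 of 82 member promoters (12.2%), against 2.55% of all promoters and 4.76% of those marked in both lists. The ETS motif bound by GABP, CCGGAAG, was in 21 (25.6%), against 11.9% of all and 22.0% of marked promoters. AANATGGC, a YY1 motif with N for any base, was in 18 (22.0%), against 6.65% and 10.2%. These are sites of factors known to act on respiratory genes. AAGGTCA, a motif of ESRRA, was in 8 (9.76%, against 4.06% and 2.72%), and TGACGTCA, the CREB site, in 4 (4.88%, against 2.33% and 3.74%). At least 1 of these 5 motifs was in 48 member promoters (58.5%), against 24.3% of all and 37.1% of marked promoters. General promoter motifs gave other proportions. GGGCGG, an SP1 motif, was in 47.6% of members, 46.3% of all promoters and 69.1% of marked ones, and CCAAT in 42.7%, 39.2% and 40.1%. TATAAA was in 9 members (11%, against 13.3% and 6.10%). None of the NRF1, ETS, YY1, ESRRA and CREB motifs was in the 5 unmarked member promoters, which are too few to set this apart from the share over all promoters. A match describes the letters in this window and is not evidence of binding.

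The promoters of *Cox6a1* and *Atp5l*, a membrane subunit of ATP synthase, hold both the NRF1 core and the ETS motif, and are shown with these in capitals. *Atp5k*, *Uqcr11*, *Cox6a1* and *Atp5l* were the members with both. In *Atp5l*, marked by 1610 bp in wt and 1665 bp in ΔIkE120, there are 1 NRF1 core and 2 ETS motifs.
Cox6a1, chr5:115348909-115349208, minus strand: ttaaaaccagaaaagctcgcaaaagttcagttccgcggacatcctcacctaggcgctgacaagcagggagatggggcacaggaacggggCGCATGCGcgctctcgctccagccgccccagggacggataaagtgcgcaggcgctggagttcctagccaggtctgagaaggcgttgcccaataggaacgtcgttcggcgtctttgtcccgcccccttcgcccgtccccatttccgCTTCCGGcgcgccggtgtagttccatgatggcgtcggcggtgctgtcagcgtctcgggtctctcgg
Atp5l, chr9:44920693-44920992, minus strand: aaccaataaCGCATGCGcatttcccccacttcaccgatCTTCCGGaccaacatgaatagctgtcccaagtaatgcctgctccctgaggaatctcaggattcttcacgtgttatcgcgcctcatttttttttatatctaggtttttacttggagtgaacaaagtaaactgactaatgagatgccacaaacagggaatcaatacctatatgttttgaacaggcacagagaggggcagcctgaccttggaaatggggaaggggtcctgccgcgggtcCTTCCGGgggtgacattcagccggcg

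Other genes of the pathway were marked much as the members were. *Cycs*, somatic cytochrome c, had 1513 bp in wt and 1480 bp in ΔIkE120, while the testis form *Cyct* had no peak. *Cyc1*, cytochrome c1 of complex III, had 1162 bp in wt and 1324 bp in ΔIkE120. Somatic and testis cytochrome c thus divided as the isoform genes of complex IV did. Of 28 further assembly genes, 28 had a peak in both lists, with median lengths of 1210 and 1205 bp. At 2 of them the ratio was at or below 1/1.5 and at 2 at or above 1.5. Over all genes with both peaks the shares were 4.44% and 2.96%. *Cox17*, a copper chaperone, had 1288 bp in wt and 680 bp in ΔIkE120, a ratio of 0.528, and *Acad9*, needed for complex I assembly, 1150 and 677 bp, a ratio of 0.589. *Cox19*, an assembly factor of complex IV, had 647 bp in wt and 1275 bp in ΔIkE120, a ratio of 1.97, and *Bcs1l*, which inserts the Rieske protein into complex III, 612 and 1159 bp, a ratio of 1.89.

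Of 13 regulators of mitochondrial genes, 12 had a peak in both lists. The exception was *Ppargc1a*, a coactivator that is prominent in muscle and brown fat, whereas its relatives *Ppargc1b* and *Pprc1* were marked. *Nrf1* had 1730 bp in wt and 1727 bp in ΔIkE120. *Tfam*, which packages and transcribes mitochondrial DNA, had 987 and 1028 bp. Both had ratios near 1. *Polrmt*, the mitochondrial RNA polymerase, had 1066 bp in 2 wt peaks and 323 bp in 1 ΔIkE120 peak, a ratio of 0.303, the only regulator past 1.5 in either direction. Ribosomal protein genes, another set used by every cell, were marked at 80 of 88 in both lists. Their median lengths were 1367 bp in wt and 1403 bp in ΔIkE120, with a median ratio of 1.01, so respiratory chain peaks were somewhat shorter than theirs in each list.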

How the data were processed

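H3K27ac ChIP-seq peak lists of wt and ΔIkE120 P5424 cells were analysed, with 1 library each, so no test was run. The submitters' processing notes name Bowtie2 2.3.4.3, Bowtie 1.0.0, deepTools 3.2.1, MACS2 2.1.1 and GRCm38, with no role or order. The deposited lists have 9 columns. Besides other columns such as peak coordinates, the authors deposited a score, which is 10 times the -log10 q-value cut to a whole number, a fold enrichment ratio, and a p-value and a q-value for each peak, both as -log10. The 4C-seq files were not used.

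Gene starts were the most 5′ start in the RefSeq promoter table (82 members), and otherwise the 5′ end of the RefSeq gene record (18 members) with the strand from GENCODE by symbol, or by older symbol for 3 of them. The gene record had first been planned for all genes. It was replaced before peaks at members were read, because 4 members had a start over 1 kb from the end of their record, and is given as an alternative. Genes without a strand were left out. The values of 1 member are not reported here. Members and lists were chosen with earlier results of these data known. Named genes were those without a peak in a list, the 3 largest and 3 smallest ratios, the 3 longest peaks per list, isoform and core subunit genes and the 3 closest pairs, and others were named after their values were seen. The promoters printed were chosen after their values were seen. After a first run, the ribosomal protein list was corrected to its written rule and the alternative of every annotated start was widened to the end of the gene record. Overlap counting was tested on simulated lists. Alternatives were windows of 500 bp and 2 kb, every annotated start, the stronger peaks of each list (from its median -log10 q up), 29902 peaks from each list, bases covered in the window, peaks holding the start, members without assembly factors, and members by older symbols. Python 3.11.15, numpy 2.4.6, pandas 2.3.3 and matplotlib 3.10.9 were used.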

Additional observations from a re-analysis of the deposited data

How the results depend on the processing

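Of 120 values, 12 results under 10 alternatives, 111 moved by at most 1.5 times (for the median log2 ratio, by less than the log2 of 1.5 and without a change of sign), 9 moved further and 0 changed sign. All that moved further were counts of 6 or fewer genes. With only the stronger peaks of each list, from its median -log10 q up, members with a peak in wt only went from 0 to 3 (*Cox6a2*, *Ndufaf2* and *Ndufb10*). Members with a ratio at or above 1.5 went from 1 to 4, and these ratios were not counted over all genes, so they have no general share beside them. Over all 21535 genes, those with a peak in wt only went from 215 to 358 under this setting. The median was 4.12 in wt and 4.47 in ΔIkE120, and *Ndufaf2*, at 4.46 in ΔIkE120, fell just short of the latter but above the former. When a peak had to hold the start, 74 members had a peak in both lists, 3 in wt only and 6 in ΔIkE120 only. Under this setting 4 members had a ratio at or below 1/1.5 and 2 a ratio at or above 1.5. No such counts were made over all genes here, so these have no general share beside them. Peaks beside the start, second peaks of split promoters among them, were then left out, as at *Ndufb5*, *Ndufv2* and *Uqcr10* in ΔIkE120 and *Ndufb4* in wt. Without assembly factors, 1 member had a ratio at or below 1/1.5 and 0 a ratio at or above 1.5, as *Sdhaf4* and *Sdhaf3* were then left out. With *Sord*, *Dmac2*, *Dmac2l* and *Emc8* added, 2 had a ratio at or above 1.5. These genes matched by an older symbol alone, which does not make them genes of the respiratory chain. *Emc8* starts 138 bp from *Cox4i1* on the other strand and shares its peak, so that peak entered for both genes. With the end of the gene record as the start, the first plan, which was added as an alternative after seeing the data, *Cox5a* and *Cox7a2* lost their peaks and 88 members had one in both lists. The count of marked tissue-specific isoform genes was 1 under all 10 alternatives. Of the 9 isoform genes expressed in most tissues, 7 had a peak in both lists when it had to hold the start. With the end of the gene record as the start 8 did, and under the other alternatives all 9. No paired analysis was possible because each genotype has 1 library. Peak lists show neither depth nor signal below the threshold, lengths depend on the depth of each library, and a ratio from 1 library of each genotype has no error.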

Other observations

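Mitochondrial DNA, which encodes the remaining subunits of complexes I, III, IV and ATP synthase, had 3 called peaks (947 bases in all) in the wt list and 4 (2089 bases) in the ΔIkE120 list. Their -log10 q ran from 1.39 to 3.46 in wt and from 1.48 to 3.31 in ΔIkE120. All lay below the median of their list, 4.12 in wt and 4.47 in ΔIkE120, so they were among the weaker calls. Whether they reflect histone acetylation at all was not tested, and their number and bases give no difference between genotypes. None of the 19 annotated pseudogenes that carry the same symbol prefixes on the nuclear chromosomes had a peak inside its record in either list. Only the record was searched, not the window of 1 kb to either side of a start. Unique placement of reads in these records was not tested, and no share over all pseudogenes was counted. The missing peaks are thus uncertain, as at *Ndufb4b* and *Ndufb4c*, and do not show that the pseudogenes lack the mark.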
